A study of Mus musculus with 12 samples.

Results

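The kininogen, kinin and angiotensin system was followed through 9 genes, Kng2, Kng1, Bdkrb1, Bdkrb2, Ace, Mme, Agt, Agtr1a and Cpn1, out of 55414 genes measured in whole lung. They were chosen by name for their place in the system, and Kng2 also because it was higher in IL-10 B-KO lungs, so that its difference between genotypes is given as a description without a test. The lungs came from 12 mice, all given 50 µg of lipopolysaccharide (LPS), the endotoxin of Gram-negative bacteria, used here to injure the lung, and all were taken on day 4. In 6 IL-10 B-KO mice a floxed Il10 gene was deleted by Mb1-Cre, a recombinase expressed from the B lineage gene mb-1 (Cd79a), and 6 IL-10 B-WT mice served as controls, in short B-KO and B-WT. All mice were on a C57BL/6J background. The controls also received LPS, so that the comparison is between genotypes during injury and does not include an uninjured lung. RNA was sequenced from bulk tissue and the authors deposited TPM, a unit that divides by gene length within a fixed library total and can therefore be compared between genes.

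Kininogens are plasma proteins from which kallikreins cut bradykinin, a short peptide that dilates vessels and makes them leak. Bradykinin acts on the constitutive B2 receptor, while its shortened form, made by carboxypeptidases, acts on the inducible B1 receptor. Angiotensin-converting enzyme, carried at a high level by the capillary endothelium of the lung, destroys bradykinin and also converts angiotensin I, released from angiotensinogen by renin, to the vasoconstrictor angiotensin II.

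Genes above 0 TPM numbered 21380 to 24138 per control library and 22595 to 23453 per B-KO library. Sftpc, the surfactant gene of alveolar type 2 cells, ranged from 2548 to 16424 TPM, and Pecam1, an endothelial marker, from 330 to 560 TPM. Il10 itself was listed at 0 to 0.88 TPM in the controls and from 0 to 0.58 TPM with the deletion, so that the targeted transcript did not separate the genotypes in bulk lung. Cd79a, a component of the B cell receptor, was at 15.3 to 259 TPM in B-WT lungs, but stood at 0 to 0.05 TPM in 4 of 6 B-KO lungs (replicates 1, 3, 4 and 5) and had 4.35 TPM in replicate 2 and 5.73 TPM in replicate 6. Since Mb1-Cre lies in this gene, the other B cell markers were read beside it. All 4 B cell markers listed had a lower mean in B-KO lungs, and 2 of them, Cd79a and Jchain, were called, where 0.469% of all genes tested were called lower. In the 4 B-KO lungs with Cd79a below 1 TPM, Ms4a1, the gene of the B cell antigen CD20, was at 0.08 to 0.13 TPM and Jchain, an antibody-joining protein, at 0.03 to 0.11 TPM. Cd79b, the remaining marker listed, was lower but not near 0 in these lungs, at 3.23 to 6.82 TPM beside 13.11 to 214.47 TPM in controls. The fall of B cell transcripts and the loss of Il10 in B cells cannot be told apart in this comparison.

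Of the 9 genes, 6 reached 1 TPM in at least 6 lungs, Kng2 only through its B-KO lungs. They entered limma among 15148 genes on log2(TPM + 1), a scale that understates the change of low genes, and the 5 other than Kng2 were tested. A gene was called at an adjusted p (Benjamini-Hochberg over all genes tested) of at most 0.05 together with a log2 fold change of 1 or more, up or down. Of these 5, 0 were called, where 0.495% of all genes tested were (0.0264% higher and 0.469% lower in B-KO lungs), and 1, Agtr1a, had an unadjusted p of at most 0.05, as did 12.5% of all genes. By the two-sided exact permutation test of single genes, whose smallest possible p is 0.00216 for 6 lungs against 6, 2 of 8 members were at or under 0.05, Kng1 and Agtr1a, where 11.2% of all genes tested were. That share is over genes that passed the filter, which Kng1, Agt and Cpn1 did not. Each p sets the difference between genotypes against the spread between these lungs.

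**Figure D1:**
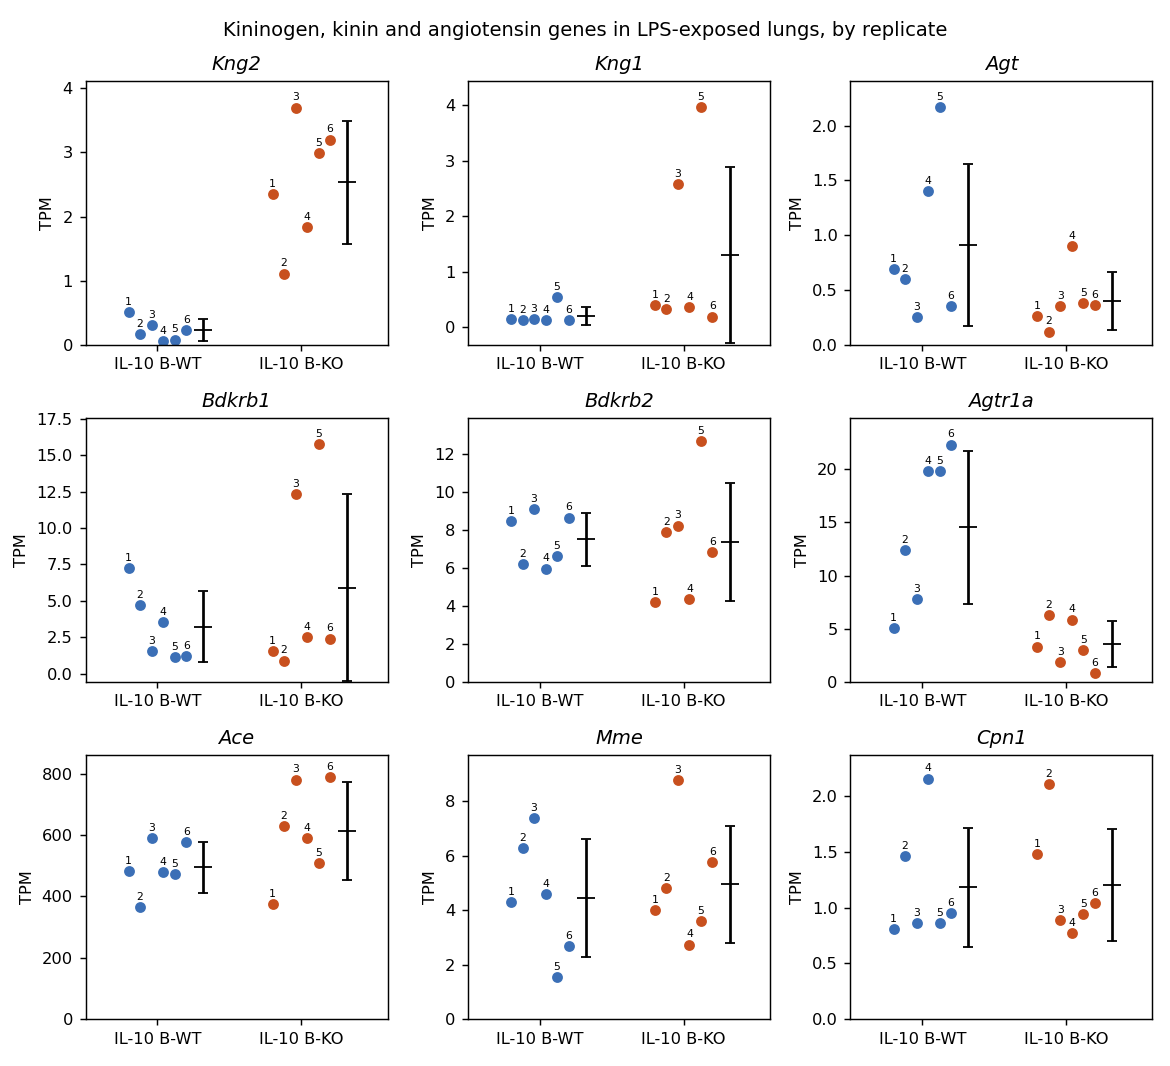
TPM of the 9 genes in each lung (points, numbered by replicate, 6 B-WT in blue and 6 B-KO in orange), with the mean and SD of each genotype in black. Kng2 is the member whose genotypes do not overlap, Agtr1a is low in the B-KO lungs, and Kng1 and Bdkrb1 are high in B-KO replicates 3 and 5.

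Kng2 and Kng1 are neighbouring genes for kininogen on mouse chromosome 16 (GRCm38, GENCODE M21), at chr16:22985854-23029482 on the minus strand and chr16:23057865-23082078 on the plus strand, with 28382 bases between them. Both carry the bradykinin codons in exon 10 of 10, at chr16:22988281-22988307 in Kng2 and at chr16:23078989-23079015 in Kng1. The coding stretches around bradykinin are shown because they let the copies be compared at the active peptide, with the 27 bases that encode bradykinin in capitals and 36 coding bases on each side in lower case.
Kng2: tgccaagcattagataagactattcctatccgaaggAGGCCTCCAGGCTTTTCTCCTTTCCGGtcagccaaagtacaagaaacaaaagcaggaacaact
Kng1: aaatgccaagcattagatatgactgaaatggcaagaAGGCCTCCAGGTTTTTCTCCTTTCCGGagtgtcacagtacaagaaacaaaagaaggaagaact
Within the bradykinin codons the genes differ at 1 of 27 bases, C12T, written as the Kng2 base, the position counted from 1 at the 5′ end of the capitals, and the Kng1 base. Over the aligned coding sequence 92.8% of bases and 85.2% of residues are identical. Of all 50-base windows in the annotated transcripts, 19.4% of those of Kng2 and 17.2% of those of Kng1 also occur in the other gene, so that the division of reads between the pair is uncertain.

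Kng2 was low in every control lung and higher in every B-KO lung. It stood at 0.51, 0.16, 0.31, 0.05, 0.08 and 0.23 TPM in the controls, listed as replicates 1 to 6, whereas B-KO replicates 1 to 6 had 2.35, 1.11, 3.70, 1.84, 2.99 and 3.20 TPM. The lowest B-KO lung thus lay above the highest control lung. The mean was 0.223 ± 0.170 TPM (SD, n = 6) against 2.53 ± 0.954 TPM (SD, n = 6), an 11.3-fold ratio of the means, and the log2 fold change was 1.49. Among all genes tested, 0.0924% were higher in every B-KO lung than in any control lung, a share from which nothing is read here because Kng2 was selected on this contrast. Counted over the 4 B-KO lungs with Cd79a below 1 TPM, its log2 fold change was 1.59, and over the 2 with more it was 1.29.

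Kng1 was also higher in B-KO lungs, but unevenly. Its values were 0.14, 0.13, 0.14, 0.12, 0.54 and 0.13 TPM in the controls, listed as replicates 1 to 6, whereas B-KO replicates 1 to 6 had 0.40, 0.32, 2.57, 0.36, 3.97 and 0.19 TPM. All 6 B-KO lungs lay above the control median, while only replicates 3 and 5 lay above every control lung. The difference in mean log2(TPM + 1) was 0.70 (two-sided exact permutation test, p = 0.0433, n = 6 per genotype). Kng1 was below the expression filter, and when all genes above 0 were tested without the filter its adjusted p from limma was 0.623. The exact p rose above 0.05 in 7 of the 12 fits that left out 1 lung, to 0.132 without any of B-WT replicates 1, 2, 3, 4 and 6 and to 0.0563 without B-KO replicate 3 or 5.

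The ratio of the kininogens varied from lung to lung. Their sum was between 0.17 and 0.65 TPM in controls but between 1.43 and 6.96 TPM in B-KO lungs. Kng2, which was chosen for its rise, was at 1.11 TPM or more in B-KO lungs, above the highest control sum. The sums were thus set apart by Kng2 alone, and nothing is read from their separation. Kng2 made up 12.9% to 78.5% of the sum in the controls and 43.0% to 94.4% in B-KO lungs, the lowest B-KO share being in replicate 5 and the highest in replicate 6. B-KO replicate 6 ranked 2 of 12 for Kng2 with a Kng1 level of 0.19 TPM, under the highest control.

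**Figure D2:**
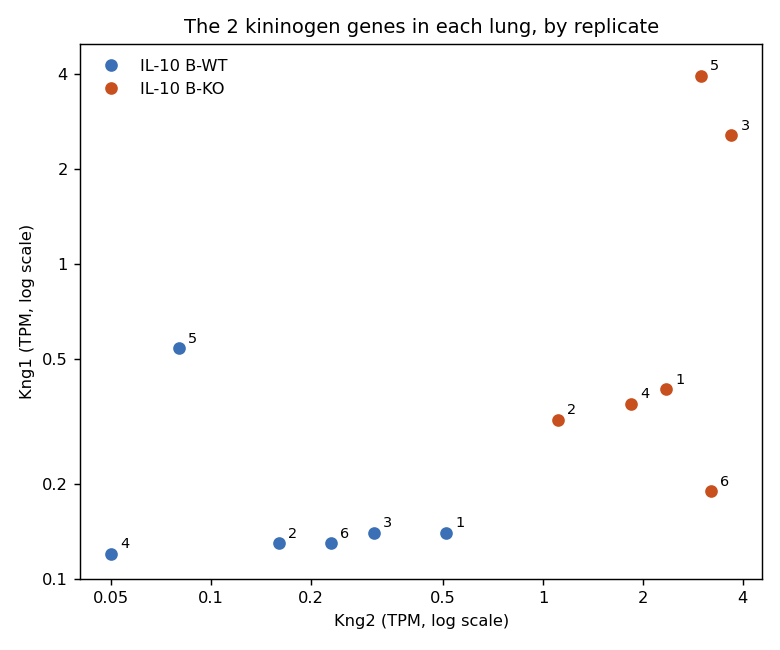
Kng2 (x axis, TPM, log scale) against Kng1 (y axis, TPM, log scale) in each of 12 lungs, numbered by replicate, with B-WT in blue and B-KO in orange. The genotypes separate along Kng2 (at most 0.51 against at least 1.11 TPM) but not along Kng1, where B-KO replicates 3 and 5, at 2.57 and 3.97 TPM, stand above the rest.

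Kininogen in plasma comes mainly from the liver, so that genes typical of liver were examined beside the pair. Of 16 liver genes listed, 7 were tested, 0 were called, 2 were higher and 5 lower, and their median log2 fold change was -0.10 beside 0.10 for all genes tested. Their summed level was 18.8 to 41.7 TPM in B-WT and 21.7 to 43.2 TPM in B-KO lungs. Alb, the albumin gene, was at 4.18 ± 2.14 TPM (SD, n = 6) in controls and 3.62 ± 0.824 TPM (SD, n = 6) in B-KO lungs, and no gene of the list was at 0 in every lung. One liver list gene chosen after its values were seen, Hpx, which encodes the haem-binding protein hemopexin, stood at 3.66 ± 1.25 TPM (SD, n = 6) in B-WT and 10.9 ± 7.71 TPM (SD, n = 6) in B-KO lungs, with a log2 fold change of 1.16 and an adjusted p of 0.256 in limma. Fetub and Ahsg, members of the same list that lie near the kininogen pair, did not pass the test. Fetub, which encodes a liver protease inhibitor of the same protein family, lies 46075 bases from Kng2 and had a log2 fold change of 0.42 (limma, adjusted p = 0.441). Ahsg, the gene of the related protein fetuin-A, had a log2 fold change of -0.08 (limma, adjusted p = 0.881).

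Markers of inflammatory cells had higher means in B-KO lungs, with no gene called. All 7 neutrophil genes listed had a higher mean in B-KO lungs (0 called, 7 with an unadjusted p of at most 0.05, median log2 fold change 1.87), with a summed level of 276 to 2479 TPM in controls and 1041 to 7527 TPM in B-KO lungs. All 7 macrophage genes listed had a higher mean as well (0 called, 5 with an unadjusted p of at most 0.05, median 1.36), at a summed 706 to 12157 TPM in controls and 3522 to 10625 TPM in B-KO lungs. The highest control sums of both lists were in replicate 1, whose Kng2 level of 0.51 TPM was also the highest of the controls. Its macrophage sum exceeded that of every B-KO lung, but Lyz2 alone made up 11126 TPM of it. Lyz2 and Marco were higher in this lung than in any B-KO lung, whereas Adgre1, Csf1r, Mrc1, Cd68 and C1qa were higher in B-KO replicate 3. No marker in either list was at 0 in any lung. The part of these cells in the kininogen values was not tested.

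The genes most like Kng2 across the 12 lungs by Spearman's rho of TPM were Ucp2 (0.958), a mitochondrial carrier, followed at 0.951 each by Ntpcr, Cnppd1, H2-D1, a classical MHC class I gene, and Ms4a4a, a membrane protein of macrophages. These values span both genotypes, and within the 6 B-WT lungs alone rho lay between 0.829 and 0.943 and within the 6 B-KO lungs between 0.771 and 1.0. Ms4a4a stood at 10.1 ± 8.64 TPM (SD, n = 6) in controls and 45.2 ± 24.1 TPM (SD, n = 6) in B-KO lungs. Ucp2 was at 388 ± 84.5 TPM (SD, n = 6) and 721 ± 208 TPM (SD, n = 6), respectively. These genes were picked from all genes tested for their likeness, which is why no p is attached.

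Bdkrb1 and Bdkrb2, the genes of the inducible B1 and the constitutive B2 receptor, lie side by side on chromosome 12 (chr12:105603085-105605428 and chr12:105563226-105595237, plus strand) with 7847 bases between them, and their coding sequences share 63.4% of aligned bases. Bdkrb1 stood at 7.25, 4.68, 1.55, 3.53, 1.14 and 1.22 TPM in the controls, listed as replicates 1 to 6, whereas B-KO replicates 1 to 6 had 1.54, 0.89, 12.33, 2.53, 15.73 and 2.41 TPM. B-KO replicates 3 and 5 were above every control lung, replicate 2 was below every control lung, and 4 of 6 B-KO lungs were below the control median. The log2 fold change of 0.39, with a standard error of 0.55 and a 95% interval from -0.80 to 1.58, was smaller than the spread between lungs (limma, adjusted p = 0.769). When 1 lung was left out it ran from 0.030 without B-KO replicate 5 to 0.66 without B-KO replicate 2, and it was 0.095 without B-KO replicate 3. Over the 4 B-KO lungs with Cd79a below 1 TPM it was 0.85, and over the 2 with more it was -0.54.

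Bdkrb2 was steadier among the controls. It was at 8.48, 6.22, 9.09, 5.96, 6.64 and 8.65 TPM in the controls, listed as replicates 1 to 6, whereas B-KO replicates 1 to 6 had 4.19, 7.88, 8.23, 4.36, 12.68 and 6.83 TPM. Replicates 1 and 4 of the B-KO group were below every control lung and replicate 5 above every control lung. The log2 fold change was -0.09 (95% interval -0.59 to 0.41; limma, adjusted p = 0.882). The B1 receptor gene was above the B2 receptor gene in 0 of 6 B-WT lungs and in 2 of 6 B-KO lungs, replicates 3 and 5, in which Bdkrb1, Kng1 and Hpx each had their highest 2 values of all 12 lungs. The neutrophil gene S100a8, chosen after its values were seen, had ranks 3 and 1 in these lungs among the 12. It had rank 2 in B-KO replicate 6, where Bdkrb1 had rank 7. The fibroblast gene Col1a1, also chosen after its values were seen, had ranks 1 and 3 in B-KO replicates 3 and 5. In control replicate 1 Col1a1 had rank 2 and Bdkrb1 rank 3. The part of neutrophils or fibroblasts in the Bdkrb1 values was not tested.

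Agtr1a, the main mouse gene for the type 1 angiotensin II receptor (chr13:30336441-30382867, plus strand), was the member with the largest difference among those that could be tested. Control replicates 1 to 6 had 5.03, 12.37, 7.80, 19.86, 19.86 and 22.34 TPM. B-KO replicates 1 to 6 had 3.32, 6.29, 1.86, 5.85, 3.01 and 0.85 TPM. Of the B-KO lungs, 4 were below every control lung and all 6 below the control median, while replicates 2 and 4 exceeded control replicate 1. The mean was 14.5 ± 7.18 TPM (SD, n = 6) in controls and 3.53 ± 2.16 TPM (SD, n = 6) in B-KO lungs, a 4.12-fold ratio. The log2 fold change was -1.77 with a standard error of 0.40 and a 95% interval from -2.64 to -0.91. It did not pass the adjusted threshold (limma, p = 6.58e-04, adjusted p = 0.0810), and the exact permutation test of the single gene gave p = 0.00649 (two-sided, n = 6 per genotype). Single lungs decided the call, since leaving out B-WT replicate 1 gave an adjusted p from limma of 0.0172, and leaving out B-KO replicate 2 one of 0.0474. Calls also rose over all genes in these 2 fits, to 604 and 116, against 75 in the main fit. With array quality weights, where Agtr1a also passed, 318 genes were called. The direction was the same in all 23 alternatives, of which 3 had an adjusted p of at most 0.05. Over the 4 B-KO lungs with Cd79a below 1 TPM the log2 fold change was -1.70 (limma, adjusted p = 0.125), and over the 2 with more it was -1.92 (limma, adjusted p = 0.921).

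**Figure D3:**
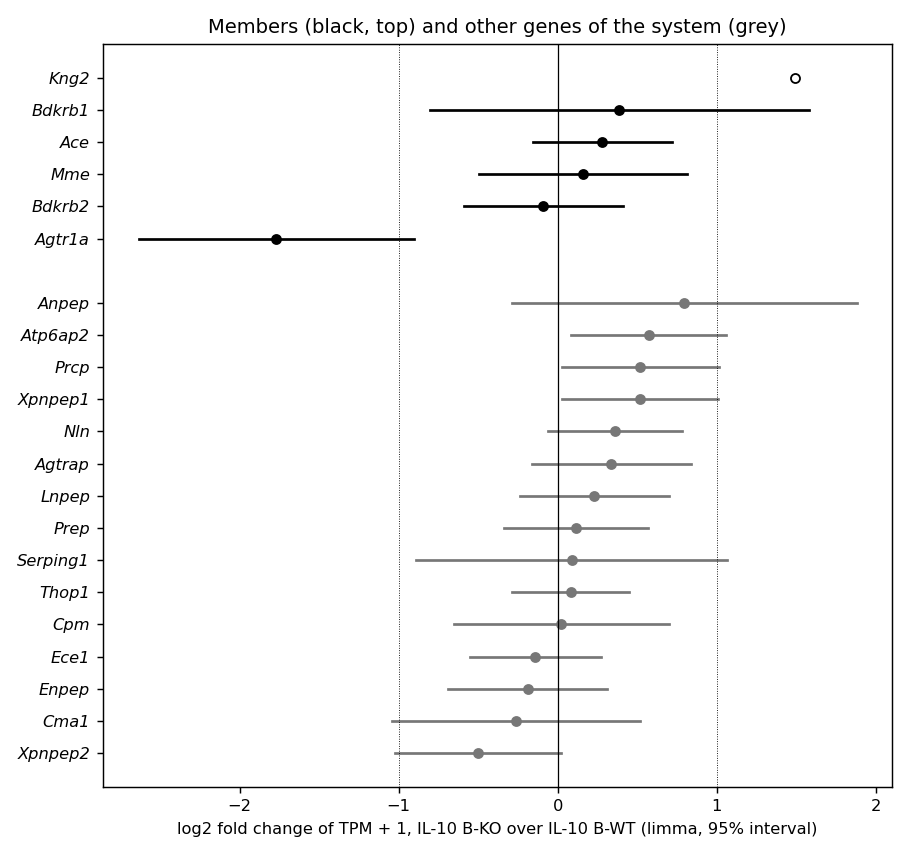
Log2 fold change of TPM + 1, B-KO over B-WT (x axis), with 95% intervals from limma, for the 5 members tested (black) and 15 other genes of the system tested (grey), and without an interval for Kng2 (open circle), dotted lines marking a log2 fold change of 1 up or down. Agtr1a has the lowest value (-1.77) and Kng2, which was chosen for its rise, the highest (1.49), and the other members lie between -0.09 and 0.39 with intervals that include 0.

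In the lung Agtr1a is known from pericytes, the contractile cells along capillaries, and pericyte markers were lower in the same lungs. All 10 pericyte genes listed had a lower mean in B-KO lungs and 3 of them were called, Pdgfrb, Trpc6 and Notch3, with a median log2 fold change of -1.23 over the list. The list was uneven, from -0.17 for Kcnj8 and -0.25 for Rgs5 (limma, adjusted p = 0.858 and 0.802) to -1.78 for Notch3. The list summed to 262 to 662 TPM in B-WT and 87.0 to 311 TPM in B-KO lungs, and none of its genes was at 0 in any lung. Pdgfrb, the receptor for platelet-derived growth factor that marks these cells, was at 54.6 ± 15.0 TPM (SD, n = 6) in controls and 20.3 ± 7.88 TPM (SD, n = 6) in B-KO lungs. Smooth muscle cells also carry this receptor, and all 7 smooth muscle genes listed had a lower mean in B-KO lungs (0 called, 4 with an unadjusted p of at most 0.05, median log2 fold change -0.89), with sums of 262 to 1076 TPM in controls and 113 to 556 TPM in B-KO lungs. In bulk tissue fewer cells of a type and less RNA per cell cannot be told apart. To compare Agtr1a with these genes inside each lung, the mean log2(TPM + 1) of the pericyte list was subtracted from that of Agtr1a. This within-lung difference was -0.61 ± 0.46 (SD, n = 6) in controls and -1.32 ± 0.62 (SD, n = 6) in B-KO lungs. The change in this difference was -0.72 on the log2 scale (two-sided exact permutation test, p = 0.0455, n = 6 per genotype). It did not hold after adjustment over the 3 within-lung tests made (adjusted p = 0.0682). With the replicate number as a block, although the numbers do not pair the mice, the exact p was 0.125. Because Kcnj8 and Rgs5 enter the list mean, the difference does not set Agtr1a (log2 fold change -1.77) apart from Notch3.

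The 5 genes most like Agtr1a across the 12 lungs were Adra1d, an alpha-1 adrenergic receptor (rho 0.998), Fam162b, Cstdc2 and Vsnl1 (0.991 each) and Adcy8, an adenylyl cyclase (0.988). Within the 6 control lungs rho was between 0.899 and 0.986 and within the 6 B-KO lungs between 0.943 and 1.0. Adra1d was at 1.85 ± 0.732 TPM (SD, n = 6) in controls and 0.503 ± 0.375 TPM (SD, n = 6) in B-KO lungs. Fam162b was at 28.2 ± 14.1 TPM (SD, n = 6) and 8.10 ± 4.82 TPM (SD, n = 6). Agtr1b, the second mouse gene for the type 1 receptor, shares 90.8% of its coding bases with Agtr1a but was at no more than 0.26 TPM in any lung, and 33 of the 2922 windows of 50 bases in Agtr1a transcripts also occur in it. An intronic RNA on the same strand within Agtr1a, Gm48161, was at 13.0 ± 3.61 TPM (SD, n = 6) in controls and 10.7 ± 4.58 TPM (SD, n = 6) in B-KO lungs (limma, adjusted p = 0.619).

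Agt, the angiotensinogen gene (chr8:124556534-124569706, minus strand), encodes the substrate of renin. The stretch around angiotensin I in exon 2 of 5 (chr8:124564450-124564479) is shown because the enzyme of Ace acts on this peptide, with its 30 bases in capitals and 36 coding bases on each side in lower case.
Agt: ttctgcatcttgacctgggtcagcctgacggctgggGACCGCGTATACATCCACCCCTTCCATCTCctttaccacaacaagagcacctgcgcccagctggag
Its values were 0.69, 0.60, 0.25, 1.40, 2.17 and 0.35 TPM in the controls, listed as replicates 1 to 6, whereas B-KO replicates 1 to 6 had 0.26, 0.12, 0.35, 0.90, 0.38 and 0.36 TPM. The genotypes overlapped, with 5 of 6 B-KO lungs below the control median. The difference in mean log2(TPM + 1) was -0.39 (two-sided exact permutation test, p = 0.136, n = 6 per genotype), which is within the spread between lungs, and the gene was below the expression filter. It was -0.23 without B-WT replicate 5 and -0.87 with a pseudocount of 0.1.

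Ace (chr11:105967945-105989964, plus strand), the gene of angiotensin-converting enzyme, was by far the most abundant member. It stood at 482, 366, 591, 478, 473 and 578 TPM in the controls, listed as replicates 1 to 6, whereas B-KO replicates 1 to 6 had 375, 630, 781, 590, 508 and 790 TPM. Replicates 2, 3 and 6 of the B-KO group lay above every control lung and none lay below every control lung. The mean was 494 ± 82.2 TPM (SD, n = 6) in B-WT and 612 ± 160 TPM (SD, n = 6) in B-KO lungs. The log2 fold change of 0.28 (95% interval -0.16 to 0.72) did not pass the test (limma, adjusted p = 0.550), and it was 0.079 with quantile normalization and 0.17 with median centring. An antisense transcript over Ace, Gm11651, was at no more than 0.73 TPM in any lung, and whether the libraries kept strand is not given in the sources used here.

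Ace is carried by endothelial cells. All 10 endothelial genes listed had a lower mean in B-KO lungs, 0 were called, and their median log2 fold change was -0.28, with a summed level of 2592 to 6346 TPM in controls and 2620 to 5579 TPM in B-KO lungs. The within-lung difference between Ace and the mean of the endothelial list on the log2(TPM + 1) scale was 0.67 ± 0.32 (SD, n = 6) in controls and 1.26 ± 0.49 (SD, n = 6) in B-KO lungs. Ace was thus 0.59 higher relative to these genes in B-KO lungs (two-sided exact permutation test, p = 0.0325, n = 6 per genotype), with replicates 3, 5 and 6 above every control lung. The difference did not hold after adjustment over the 3 within-lung tests made (adjusted p = 0.0682). With the replicate number as a block, although the numbers do not pair the mice, the exact p was 0.0938.

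**Figure D4:**
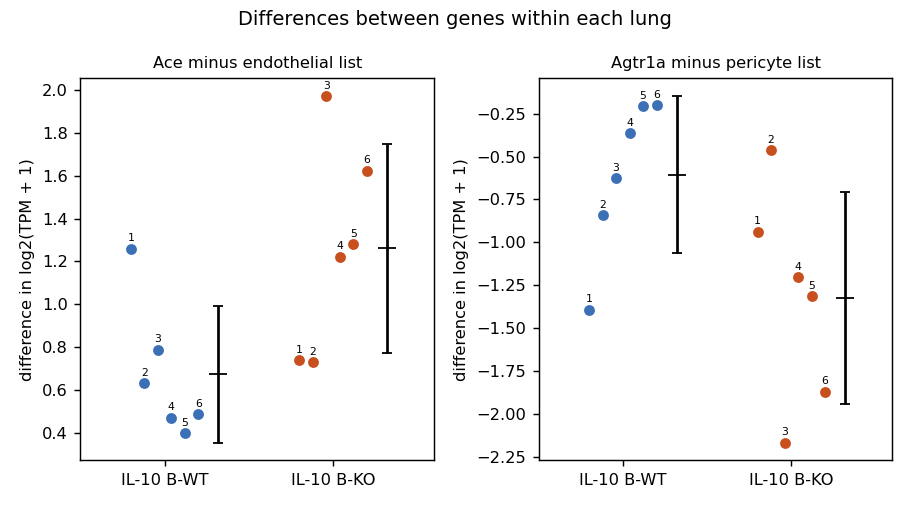
Differences in log2(TPM + 1) within each lung (points, numbered by replicate, with mean and SD in black) between Ace and the mean of 10 endothelial genes and between Agtr1a and the mean of 10 pericyte genes, in B-WT (blue) and B-KO (orange). Means are 0.67 and 1.26, and -0.61 and -1.32, and the genotypes overlap in each panel.

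Mme encodes neprilysin, a membrane protease that cuts bradykinin and turns angiotensin I into angiotensin 1-7 (chr3:63241537-63386030, plus strand). It was at 4.30, 6.29, 7.37, 4.59, 1.55 and 2.67 TPM in the controls, listed as replicates 1 to 6, whereas B-KO replicates 1 to 6 had 4.01, 4.80, 8.78, 2.73, 3.60 and 5.76 TPM. The genotypes overlapped over most of their range and the log2 fold change was 0.16 (95% interval -0.50 to 0.82; limma, adjusted p = 0.828). Cpn1 encodes the catalytic subunit of carboxypeptidase N, the plasma enzyme that trims bradykinin to the B1 receptor ligand (chr19:43956307-43986556, minus strand). It was at 0.81, 1.46, 0.86, 2.16, 0.86 and 0.95 TPM in the controls, listed as replicates 1 to 6, whereas B-KO replicates 1 to 6 had 1.48, 2.11, 0.89, 0.77, 0.94 and 1.04 TPM. Cpn1 levels overlapped, with a difference in mean log2(TPM + 1) of 0.02 (two-sided exact permutation test, p = 0.879, n = 6 per genotype).

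Ordered by mean TPM, the members ran in B-WT lungs from Ace through Agtr1a, Bdkrb2, Mme, Bdkrb1, Cpn1, Agt and Kng2 to Kng1. With the deletion the order was Ace, Bdkrb2, Bdkrb1, Mme, Agtr1a, Kng2, Kng1, Cpn1 and Agt. Ace did not overlap with the next gene in either genotype, and every other pair of neighbours in these orders overlapped between lungs. Agtr1a thus held rank 2 by mean level in controls and rank 5 in B-KO lungs, and Kng2 ranks 8 and 6.

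Among 29 other genes of the system, 15 were tested and 0 were called, 11 with a higher and 4 with a lower mean in B-KO lungs and a median log2 fold change of 0.12 beside 0.10 for all genes tested. At an unadjusted p of at most 0.05, 3 were higher and 0 lower, where 6.83% of all genes tested were higher and 5.71% lower. The 3 were Atp6ap2, the prorenin receptor and a subunit of the proton pump, Xpnpep1, a cytosolic aminopeptidase that removes the end residue of bradykinin, and Prcp, a lysosomal carboxypeptidase that acts on angiotensin II. Atp6ap2 went from 34.0 ± 12.2 to 50.04 ± 11.7 TPM (SD, n = 6 each) with a log2 fold change of 0.57 (limma, adjusted p = 0.344). Xpnpep1 and Prcp each had a log2 fold change of 0.52 (limma, adjusted p = 0.379 and 0.380), and all 6 B-KO lungs lay above the control median for each of these 3 genes. The next genes by p were Xpnpep2, the membrane-bound aminopeptidase, with a log2 fold change of -0.50 (limma, adjusted p = 0.418), and Nln, the peptidase neurolysin, with 0.36 (limma, adjusted p = 0.456).

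The genes that release kinins and angiotensin I were low in lung. Klkb1, plasma prekallikrein, was at 0.14 to 0.31 TPM in B-WT and 0.05 to 0.17 TPM in B-KO lungs, with 4 B-KO lungs below every control lung, and it was below the expression filter. Its difference in mean log2(TPM + 1) was -0.11 (two-sided exact permutation test, p = 0.0108, n = 6 per genotype), a p not adjusted for the number of genes. Among genes that passed the filter, 11.2% had an exact p of at most 0.05. F12, coagulation factor XII, which activates prekallikrein, was at 0.297 ± 0.134 TPM (SD, n = 6) and 0.293 ± 0.307 TPM (SD, n = 6). Ren1, the renin gene, was listed at 0 TPM in all 12 lungs. Serping1, which encodes the C1 inhibitor that restrains kallikrein and factor XII, was abundant at 247 ± 150 TPM (SD, n = 6) in controls and 264 ± 144 TPM (SD, n = 6) in B-KO lungs, with a log2 fold change of 0.09 (limma, adjusted p = 0.942).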

How the data were processed

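Lung RNA of 12 mice was measured, and the authors deposited 1 table of TPM for 55414 genes, 1 column per lung and without pooling. Per the labels, fastp, HISAT and RSEM were used with genome build GRCm38.p5, and the versions and annotation release are not given in the sources used here. TPM keep no depth, so no counting error was given and no count model was fitted. Columns summed to 991646 to 994430 TPM, no libraries were identical, and each column was matched to its lung by name.

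Groups followed the genotype label. Values were analysed as log2(TPM + 1) with limma 3.58.1 in R 4.3.3 (lmFit, eBayes with a trend, genotype alone as a term) over 15148 genes with at least 1 TPM in at least 6 lungs, after a test on simulated data. Single genes and within-lung differences were compared by two-sided exact permutation of all 924 arrangements. The methods of the study name Limma among several tools, with an adjusted p threshold and a fold of change of 1, which was taken here to be on the log2 scale. Replicate numbers do not pair the mice. Coordinates, windows and sequences came from GENCODE M21 on GRCm38 by gene ID. Further steps ran in Python 3.11.15 with SciPy 1.17.1, pandas 2.3.3, NumPy 2.4.6, Biopython 1.88 and matplotlib 3.10.9.

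The members and gene lists were chosen with earlier results of these data known. Genes named by plan were the members, the 5 other genes of the system with the smallest p, Ren1, Klkb1, F12 and Serping1, the 5 genes most like Kng2 and Agtr1a, and Alb, Sftpc, Pecam1, Pdgfrb and Cd79a. Further genes of the lists, and genes near, overlapping or closely related to the members, were named outside this plan, some after their values were seen. Alternatives were another pseudocount, no filter, a mean of at least 5 TPM, quantile normalization, array quality weights, median centring, rescaling without immunoglobulin genes, no trend, a replicate block, each lung left out, and, chosen after seeing the data, IL-10 B-KO lungs with Cd79a below or above 1 TPM. Some genes of the lists, and 1 of 3 within-lung tests, which still counts in the adjustment, are not reported here.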

Additional observations from a re-analysis of the deposited data

Results flagged for a closer look

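In 22 groups of 6 lungs (the 9 genes and the 2 reported within-lung differences in each genotype), 2 had a lung far from the others by Dixon's test, where chance gives about 5% of groups. Kng1 was at 0.54 TPM in IL-10 B-WT replicate 5, with the other controls at 0.12 to 0.14 TPM. Agt was at 0.90 TPM in IL-10 B-KO replicate 4, with the others at 0.12 to 0.38 TPM.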

How the results depend on the processing

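Depth is unknown from TPM, so low values such as those of Kng1, Agt and Cpn1 carry no counting error, and these 3 genes were below the filter, so that rescaling by limma, weights and the block were not run for them. Relative to the reported values, the count of tested members called, apart from Kng2, was 1 in place of 0 with array quality weights (Agtr1a), and 0 to 1 when 1 lung was left out. The count at an exact p of at most 0.05 was 1 to 3 in place of 2 when 1 lung was left out. Kng2 had a log2 fold change of 3.09 with a pseudocount of 0.1 and 1.40 to 1.63 without 1 lung. The sign turned for Mme with array quality weights (-0.15) and without IL-10 B-WT replicate 5 (-0.038 to 0.31 without 1 lung), for Bdkrb1 over the 2 IL-10 B-KO lungs with Cd79a above 1 TPM (-0.54, against 0.85 over the 4 with less), for Bdkrb2 without IL-10 B-KO replicate 1 or 4 (-0.25 to 0.032 without 1 lung), and for Cpn1 without any of IL-10 B-WT replicates 1, 3, 5 and 6 or IL-10 B-KO replicates 1 and 2 (-0.087 to 0.13 without 1 lung). None of these passed a test before or after. Without 1 lung, the difference between Ace and the endothelial list was 0.45 to 0.70 (exact permutation p 0.0152 to 0.0693), and between Agtr1a and the pericyte list -0.89 to -0.55 (exact permutation p 0.0173 to 0.0909). Same-numbered lungs of the genotypes correlated at -0.29 to 0.05 in their deviations from the group means, so they share only a number. With the replicate block the adjusted p of Agtr1a in limma was 0.174, 45 in place of 75 genes were called over all genes, and the differences of Ace from the endothelial list (0.59) and of Agtr1a from the pericyte list (-0.72) lost their exact p of at most 0.05. Over all genes, 19 to 604 were called when 1 lung was left out (19 without IL-10 B-KO replicate 1 or 5, 604 without IL-10 B-WT replicate 1), 318 with array quality weights, 6 without the filter, 39 with quantile normalization and 36 with median centring, which moved the median log2 fold change of all genes from 0.10 to -0.01. Under centring Agtr1a was at -1.88 (limma, adjusted p = 0.128). The cause of these changes was not tested.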

Other observations

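Angiotensin II can also be made without Ace by chymases, serine proteases stored in mast cells. Mcpt4, a mouse chymase chosen after its values were seen, was at 1.03 ± 0.705 TPM (SD, n = 6) in B-WT lungs and 0.390 ± 0.249 TPM (SD, n = 6) in the B-KO group. There all 6 lay under the control median and 2 under every control lung, and because of that choice no p is attached. Mcpt4 was below the expression filter. Cma1, another chymase, was at 2.24 ± 1.43 and 1.66 ± 1.17 TPM (SD, n = 6 each; log2 fold change -0.26; limma, adjusted p = 0.760). Of 5 mast cell genes listed, Cma1 among them, 3 were tested, all with a lower mean in the B-KO group and 0 called. Before adjustment, Cpa3 and Kit passed 0.05 in limma, with log2 fold changes of -1.01 and -0.65, the latter being the list median. The list summed to 84.5 to 126 TPM in controls and 39.8 to 141 TPM in B-KO lungs. Kit alone stood at 81.7 to 121 and 39.1 to 136 TPM, and no other listed gene exceeded 4.31 TPM in any lung. The sums and the median thus describe Kit rather than the list as a whole. The part of mast cells in the chymase values was not tested.

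Anpep, an aminopeptidase of angiotensin peptides that is also found on myeloid cells, had the highest log2 fold change of the 15 other genes tested, 0.80, with 65.7 ± 71.0 TPM (SD, n = 6) in controls and 92.7 ± 39.1 TPM (SD, n = 6) in B-KO lungs, and did not pass the test (limma, adjusted p = 0.504).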
